A study of Mus musculus with 8 samples.

Results

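Transforming growth factor-β (TGF-β) is the cytokine that turns activated naïve CD4+ T cells towards regulatory T cells (Tregs), and the 10 genes described here encode the receptors, SMAD proteins and SMAD inhibitors that carry its signal. They were found by their symbols, Tgfbr1, Tgfbr2, Smad2, Smad3, Smad4, Smad7, Ski, Skil, Smurf2 and Tgif1, among the 28239 symbols of the table, and all 10 were listed once. The ligand brings the type II receptor TGFBR2 together with the type I receptor TGFBR1, which then phosphorylates SMAD2 and SMAD3. These bind SMAD4, enter the nucleus and, with partner factors, switch on target genes such as Foxp3, the transcription factor that defines Tregs. SMAD7 and the ubiquitin ligase SMURF2 act against the receptor, whereas SKI, SKIL and TGIF1 repress transcription at SMAD-bound genes. SMAD7, SKIL and TGIF1 have themselves been described as targets of the pathway in other cells, so that their RNA is often read as a sign of signaling.

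The study compared T cells from WT mice with cells from mice that lack Alox15, the gene of the 15-lipoxygenase. Both groups were C57BL/6 by the labels, with 4 libraries labelled WT and 4 labelled Alox15-/-. The study used female and male mice of 10 to 12 weeks, and the labels do not give the sex of a library. Naïve CD4+ T cells were taken from the spleen by negative selection and activated through CD3 and CD28 at 1 bead per cell for 2 days, with TGF-β at 5 ng/ml and IL-2 at 100 U/ml. By this description both groups had received TGF-β, and cells without it were not analysed here. The labels' extraction text speaks instead of stored spleens, and which applies was not tested. RNA was profiled by MACE-seq, which sequences transcripts near their 3′ ends. The deposited values are raw counts per gene symbol, here given as CPM, which are counts scaled to a fixed library total after TMM normalization.

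The total count lay between 3723151 and 6952596 in the libraries labelled Alox15-/- and between 4810125 and 9538962 in those labelled WT. Alox15 itself went against its label, with 63.7 to 70.5 CPM in the libraries labelled Alox15-/- and 1.88 to 9.02 CPM in those labelled WT (log2 fold change 3.65, edgeR adjusted p = 1.08e-05), so every difference below is given by label, Alox15-/- over WT. Which part of the gene is deleted is not given in the sources used here, and 3′ reads from outside that part would not check the label. Markers of T cells and Tregs summed to 3201 to 3396 CPM in the libraries labelled Alox15-/- and to 3272 to 3540 CPM in WT. For 2 of these 10 genes the groups did not overlap, which was the case for 5.25% of all genes tested. Cd4 was lower in the libraries labelled Alox15-/- (210 to 297 against 328 to 352 CPM, edgeR adjusted p = 0.357). Cd3g was higher in them (152 to 170 against 111 to 140 CPM, edgeR adjusted p = 0.296). Markers of other cells were higher in all 4 libraries labelled Alox15-/- than in any WT library for 6 of the 8 lists examined. Erythroid markers summed to 908 to 3491 CPM against 33.9 to 123 CPM, mast cell and basophil markers to 135 to 344 CPM against 58.6 to 81.6 CPM, and myeloid markers to 50.9 to 353 CPM against 13.8 to 19.4 CPM. Eosinophil markers summed to 21.2 to 74.1 CPM against 1.25 to 10.4 CPM, markers of NK and γδ T cells to 92.8 to 173 CPM against 33.9 to 53.3 CPM, and platelet markers to 2.66 to 13.0 CPM against 0.641 to 1.51 CPM. The B cell sums overlapped, at 212 to 310 CPM and 208 to 301 CPM, as did those of the CD8 genes, at 12.1 to 21.9 CPM and 21.5 to 31.8 CPM. None of the genes in the 9 lists was at 0 in all 8 libraries, Ncr1 of NK cells had 0 to 6 reads per library, and the part of these other cells in the results below was not tested.

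**Figure D1:**
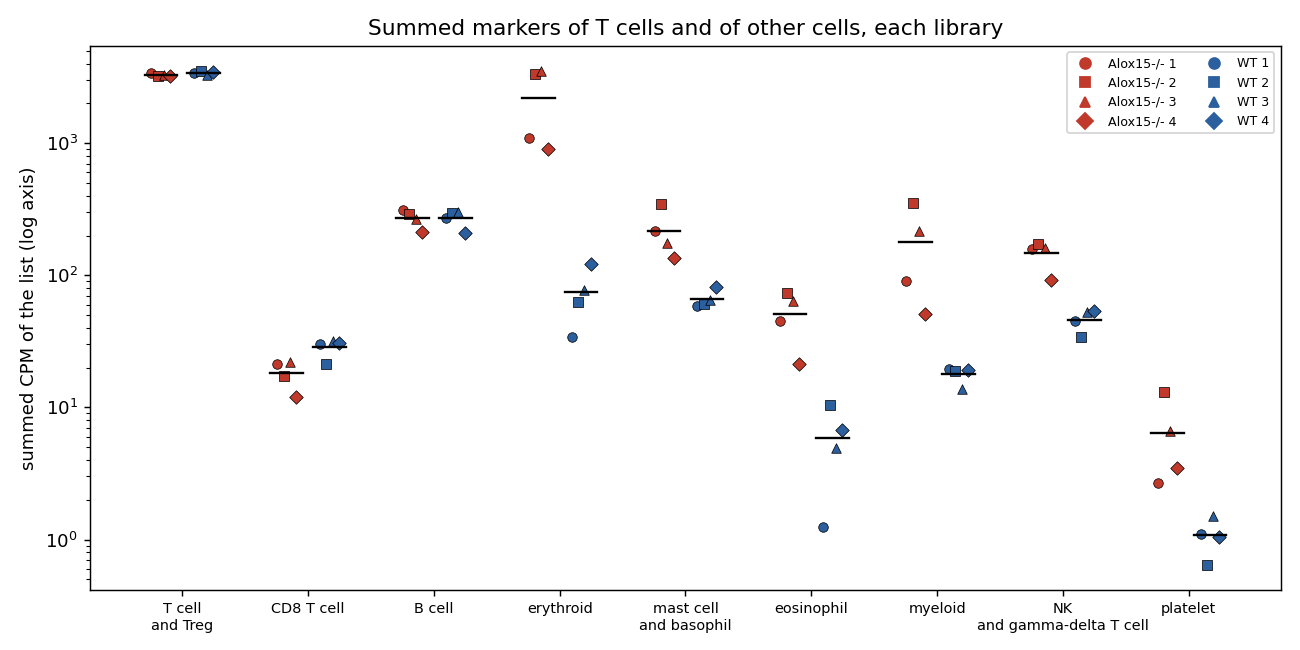
Summed CPM (log axis) of marker genes for T cells and Tregs and for 8 other kinds of cell, one point per library and a bar at the group mean, with libraries labelled Alox15-/- in red and WT in blue. The T cell sums overlap between the groups, whereas 6 of the 8 other sums are higher in every library labelled Alox15-/-, most widely for the erythroid markers.

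None of the 10 genes differed between the groups at an adjusted p under 0.05 in edgeR's quasi-likelihood test. All 10 passed the filter of at least 2 CPM in at least 4 libraries, as did 12700 genes in all, of which 158 or 1.24% passed the threshold, with 1.05% raised and 0.197% lowered relative to WT. One member, Tgfbr1, had an unadjusted p under 0.05, as did 7.84% of the genes tested. For none of the members were the 4 libraries of one group all above the 4 of the other, which was the case for 5.25% of the genes tested. The 10 log2 fold changes lay between -0.26 for Tgfbr1 and 0.14 for Smad7, with 3 above and 7 below 0 and a median of -0.019, beside a median of -0.0075 over all genes tested. DESeq2 and limma-voom also placed 0 of the 10 past an adjusted p of 0.05, with Tgfbr1 lowest in each. A p that misses the threshold does not show that the groups are alike, so the 95% interval of each difference is given with its values.

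**Figure D2:**
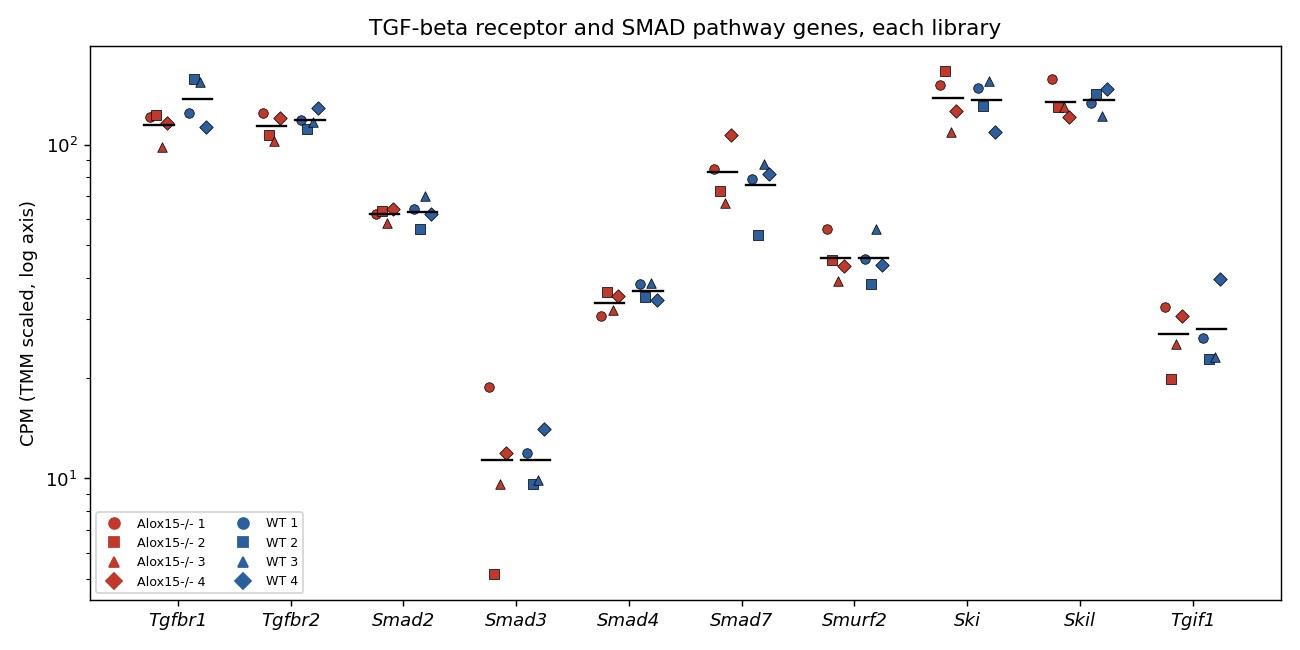
CPM (log axis) of the 10 genes in each library, with libraries labelled Alox15-/- in red, WT in blue, a symbol for each replicate number and a bar at the group mean. The points of both groups overlap for every gene, and Smad3 spans the widest range, from 5.16 to 18.8 CPM.

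The receptors were the first step examined, since they set whether a cell can respond to the ligand. Tgfbr1 (ENSMUSG00000007613.15; GRCm38 chromosome 4, 47353222 to 47414931, plus strand) encodes the kinase that phosphorylates the SMADs. It was at 121, 122, 98.3 and 116 CPM in the libraries labelled Alox15-/- and at 124, 157, 154 and 113 CPM in WT. WT replicates 2 and 3 stood above the other 6 libraries, while WT replicates 1 and 4 lay near the libraries labelled Alox15-/-, so that the groups overlapped. The log2 fold change of Tgfbr1 was -0.26 (95% interval -0.53 to -0.00083), an interval that reaches from 30.5% lower to almost no difference. In edgeR the unadjusted value was 0.0494 and the adjusted p = 0.637. In bulk samples such as these, fewer cells of a type and less RNA per cell cannot be told apart. Without either of those WT libraries in turn the log2 fold change was -0.19 and -0.20.

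Tgfbr2 (ENSMUSG00000032440.13; chromosome 9, 116084293 to 116175360, minus strand) encodes the receptor that binds the ligand first. It was at 124, 107, 103 and 121 CPM in the libraries labelled Alox15-/- and at 118, 111, 117 and 128 CPM in WT. The 8 libraries were close together, the highest 1.25 times the lowest. Tgfbr2 had a log2 fold change of -0.061 (95% interval -0.28 to 0.15, edgeR adjusted p = 0.926), an interval from 17.4% lower to 11.2% higher. The ratio of Tgfbr1 to Tgfbr2 reads within a library, which does not depend on scaling, was 0.977, 1.14, 0.959 and 0.962 in the libraries labelled Alox15-/- and 1.05, 1.42, 1.32 and 0.879 in WT. Either receptor could thus have the higher count, and the ratios of the groups overlapped.

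SMAD2 and SMAD3 are the SMADs that the activated type I receptor phosphorylates. Smad2 (ENSMUSG00000024563.16; chromosome 18, 76241580 to 76310963, plus strand) was at 62.0, 63.2, 58.2 and 64.2 CPM in the libraries labelled Alox15-/- and at 64.3, 55.7, 70.0 and 61.9 CPM in WT. Its spread was small, and all libraries labelled Alox15-/- fell inside the WT range. Smad2 had a log2 fold change of -0.027 (95% interval -0.25 to 0.19, edgeR adjusted p = 0.972).

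Smad3 (ENSMUSG00000032402.12; chromosome 9, 63646767 to 63757994, minus strand) was the lowest and the most variable of the 10 genes. It was at 18.8, 5.16, 9.64 and 11.9 CPM in the libraries labelled Alox15-/- and at 11.9, 9.61, 9.88 and 14.1 CPM in WT. Replicates 1 and 2 of the libraries labelled Alox15-/- were the highest and the lowest of all 8, while the group means were 11.4 ± 5.70 CPM (SD, n = 4) and 11.4 ± 2.07 CPM (SD, n = 4). Smad3 had a log2 fold change of 0.024 (95% interval -0.57 to 0.62, edgeR adjusted p = 0.993), so that a fall of 32.5% or a rise of 53.2% would not have been told from no difference. Only 19 to 98 reads per library were counted on Smad3. Counting error alone gives a coefficient of variation of 15.6% in the libraries labelled Alox15-/-, where the observed one was 50.1%, and of 11.7% in WT, where it was 18.2%. The ratio of Smad2 to Smad3 reads was 3.30, 12.3, 6.04 and 5.37 in the libraries labelled Alox15-/- and 5.40, 5.80, 7.08 and 4.40 in WT. Smad2 thus had more reads than Smad3 in every library, and the ratio varied with Smad3 more than with Smad2.

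SMAD4 is the common partner that both receptor-activated SMADs need. Smad4 (ENSMUSG00000024515.13; chromosome 18, 73639009 to 73703780, minus strand) was at 30.7, 36.1, 32.0 and 35.2 CPM in the libraries labelled Alox15-/- and at 38.3, 34.9, 38.6 and 34.2 CPM in WT. WT replicates 1 and 3 were above the rest and replicates 1 and 3 labelled Alox15-/- below it, with the other 4 libraries between 34.2 and 36.1 CPM. Smad4 had a log2 fold change of -0.13 (95% interval -0.37 to 0.12, edgeR adjusted p = 0.846). Its spread within a group, 7.76% in the libraries labelled Alox15-/- and 6.21% in WT, was no larger than the 7.97% and 6.60% that counting error gives. Smad4 overlaps AC132418.2 on the other strand, and whether the counting used strand is not given in the sources used here.

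**Figure D3:**
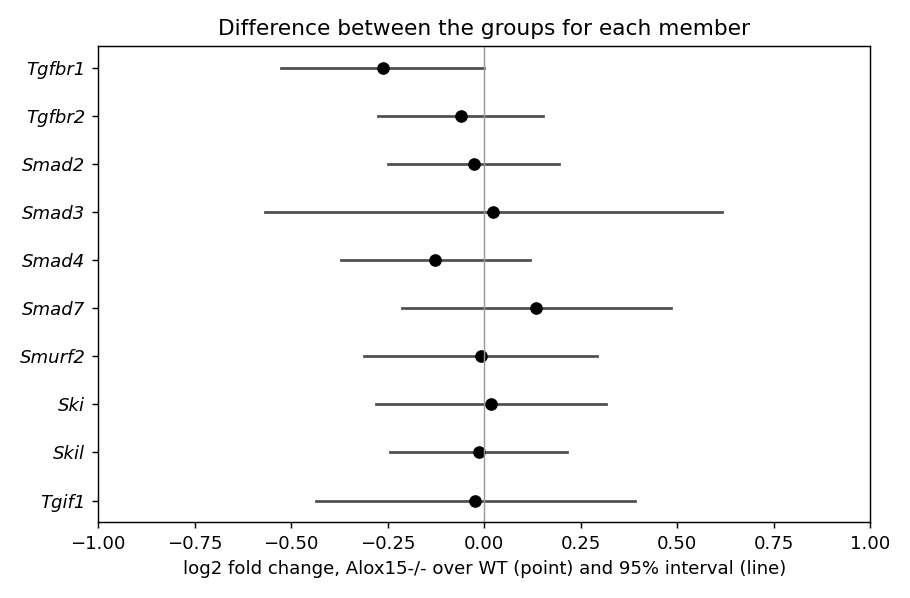
Log2 fold change of each of the 10 genes in the libraries labelled Alox15-/- over WT (points) with its 95% interval from edgeR's quasi-likelihood fit (lines). Of the 10 intervals, 9 span 0 and that of Tgfbr1 ends at -0.00083, and Smad3 has the widest, from -0.57 to 0.62.

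Among the inhibitors at the receptor, Smad7 had the highest log2 fold change of the 10 genes. SMAD7 occupies the type I receptor and brings ubiquitin ligases to it. Smad7 (ENSMUSG00000025880.11; chromosome 18, 75367529 to 75395935, plus strand) was at 84.5, 72.5, 66.9 and 107 CPM in the libraries labelled Alox15-/- and at 78.9, 53.7, 87.7 and 81.8 CPM in WT. The highest value was replicate 4 labelled Alox15-/- and the lowest WT replicate 2, with the other 6 libraries interleaved. The log2 fold change of Smad7 was 0.14 (95% interval -0.21 to 0.49, edgeR adjusted p = 0.889), and it was -0.019 without replicate 4 labelled Alox15-/- and 0.0030 without WT replicate 2. Against Smad3, the ratio of Smad7 reads was 4.49, 14.1, 6.94 and 8.96 in the libraries labelled Alox15-/- and 6.62, 5.58, 8.87 and 5.82 in WT, again overlapping.

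SMURF2 is a ubiquitin ligase that marks receptors and SMADs for degradation. Smurf2 (ENSMUSG00000018363.16; minus strand, 106820066 to 106920715) lies on chromosome 11, as Alox15 does, at a distance of 36.5 Mb. It was at 56.0, 45.1, 39.0 and 43.4 CPM in the libraries labelled Alox15-/- and at 45.5, 38.1, 56.0 and 43.7 CPM in WT. The 2 high libraries were replicate 1 labelled Alox15-/- and WT replicate 3, 1 in each group. Smurf2 had a log2 fold change of -0.0085 (95% interval -0.31 to 0.29, edgeR adjusted p = 0.997). It overlaps Gm27322 on the same strand.

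SKI and SKIL, also named SnoN, are related proteins that bind SMAD complexes and recruit co-repressors. Ski (ENSMUSG00000029050.15; chromosome 4, 155154075 to 155222592, minus strand) was at 151, 166, 109 and 126 CPM in the libraries labelled Alox15-/- and at 148, 131, 155 and 109 CPM in WT. Each group held libraries at both ends of the range. Ski had a log2 fold change of 0.018 (95% interval -0.28 to 0.32, edgeR adjusted p = 0.988). Skil (ENSMUSG00000027660.16; chromosome 3, 31095058 to 31122577, plus strand) was at 158, 130, 129 and 121 CPM in the libraries labelled Alox15-/- and at 133, 141, 122 and 146 CPM in WT. Skil had a log2 fold change of -0.014 (95% interval -0.24 to 0.21, edgeR adjusted p = 0.988), the interval running from 15.5% lower to 16.1% higher. The ratio of Skil to Ski reads was 1.04, 0.781, 1.19 and 0.963 in the libraries labelled Alox15-/- and 0.899, 1.08, 0.789 and 1.34 in WT, so which of them had more reads changed from library to library in both groups.

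TGIF1 is a homeodomain repressor that joins active SMAD complexes. Tgif1 (ENSMUSG00000047407.17; chromosome 17, 70844205 to 70853546, minus strand) was at 32.6, 19.8, 25.3 and 30.6 CPM in the libraries labelled Alox15-/- and at 26.3, 22.7, 23.1 and 39.7 CPM in WT. WT replicate 4 was the highest and replicate 2 labelled Alox15-/- the lowest, and the remaining values of the groups interleaved. Tgif1 had a log2 fold change of -0.023 (95% interval -0.44 to 0.39, edgeR adjusted p = 0.989).

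SMAD3 and SMAD4 bind DNA at short boxes with the letters CAGAC or, on the other strand, GTCTG, and a gene that carries such a box near its start could in principle be read by the same proteins whose RNA is measured here. RefSeq's promoter windows for GRCm38.p6 held 11 start sites of 6 of the 10 genes, all but Smad2, Smad4, Smad7 and Skil, and the 250 bases before the start were searched for CAGAC on both strands. It was found before 6 of the 11 start sites, in 4 of the 6 genes, as it was in 42.2% of all 32851 windows of this length. The longer palindrome GTCTAGAC was found before 0 of the 11 start sites and in 0.167% of all windows. The following 29-base stretches of the promoter strand are shown because they place the box for a ubiquitin ligase and a nuclear repressor, with the box in capitals.
Smurf2 (chr11:106920902-106920930): gttcggggcccaGTCTGggccgtggcgca
Tgif1 (chr17:70853717-70853745): ttttccgccgcgCAGACagcggatagaaa
The box shown begins 203 bases before the start of Smurf2 and 201 before the start site of Tgif1 that lies farthest upstream. Tgif1 has 5 start sites in these windows, 3 of them with at least 1 box. These are matches of letters in the reference and no binding was measured.

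The members differed from one another in level far more than between the groups. In CPM, a level per transcript end, the means over the 8 libraries ran from 137 for Ski and 135 for Skil through 126 for Tgfbr1, 116 for Tgfbr2, 79.1 for Smad7, 62.5 for Smad2, 45.8 for Smurf2, 35.0 for Smad4 and 27.5 for Tgif1 to 11.4 for Smad3. Ski was above Skil in 4 of 8 libraries and Tgfbr1 above Tgfbr2 in 4 of 8, so these neighbours did not differ beyond their spread. Skil over Tgfbr1 and Smad4 over Tgif1 each held in 6 of 8 libraries, and Smad7 over Smad2 in 7 of 8. Tgfbr2 over Smad7, Smad2 over Smurf2, Smurf2 over Smad4 and Tgif1 over Smad3 held in 8 of 8. Divided by the length of the longest coding transcript, the levels ran from 24.8 CPM per kb for Ski to 2.24 CPM per kb for Smad3, with Tgif1, whose transcript is the shortest at 1714 bases, moving from the ninth place to the fifth and Smad2 from the sixth to the ninth. Reads from near the 3′ ends need not scale with transcript length, so the level per kb is no check of the order in CPM. Ski was first and Smad3 last on both scales. The last 500 bases of these transcripts matched no other gene over 50 or more bases at 90% identity or above, so no second gene was found that could share their 3′ reads.

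Some members were highest in the same libraries. Tgfbr2, Smad3, Skil and Tgif1 were each highest in replicate 1 among the libraries labelled Alox15-/- and in replicate 4 among WT, as were 9.54% of all genes tested. For Smad3, the member with the widest range, the genes with the most similar profile over the 8 libraries were Nfat5, Sulf2 and Nr6a1. Their mean absolute difference from Smad3 was 0.12, 0.13 and 0.13 in log2 CPM after each gene was centred on its own mean, where the median over all genes tested was 0.40. Nfat5, which encodes a transcription factor of the osmotic stress response, was at 63.2 and 26.1 CPM in replicates 1 and 2 labelled Alox15-/-, the same libraries in which Smad3 was highest and lowest. Among the other members Tgif1 was nearest to Smad3, at 0.21. Nfat5, Sulf2 and Nr6a1 were picked as the nearest of all genes tested, so small distances and shared extremes follow largely from that choice. The likeness is a description of these 8 libraries.

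The rest of the pathway was examined in 7 lists with 88 genes, of which 71 were tested. Of these 71, 2 passed the adjusted threshold, both higher in the libraries labelled Alox15-/-, where 1.24% of all genes passed. One of them, Gzmb, reached the filter only in the libraries labelled Alox15-/-, so nothing is read from this count. The median log2 fold change of the 71 was -0.025. An unadjusted edgeR p under 0.05 was found for 11 of them, Gzmb included, a larger share than the 7.84% of all genes tested. The 2 genes, Itgae and Gzmb, belong to the lists of genes that TGF-β raises or lowers in T cells, whereas 0 of the tested genes for ligands, receptors, other SMADs, ubiquitin control or the SMAD-independent branch passed (5 lists, 4 genes with an unadjusted edgeR p under 0.05). With DESeq2 and with limma-voom the 2 genes called were again Itgae and Gzmb. Both used the same filter, so Gzmb again entered only through the libraries labelled Alox15-/- and its repeated call adds nothing.

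**Figure D4:**
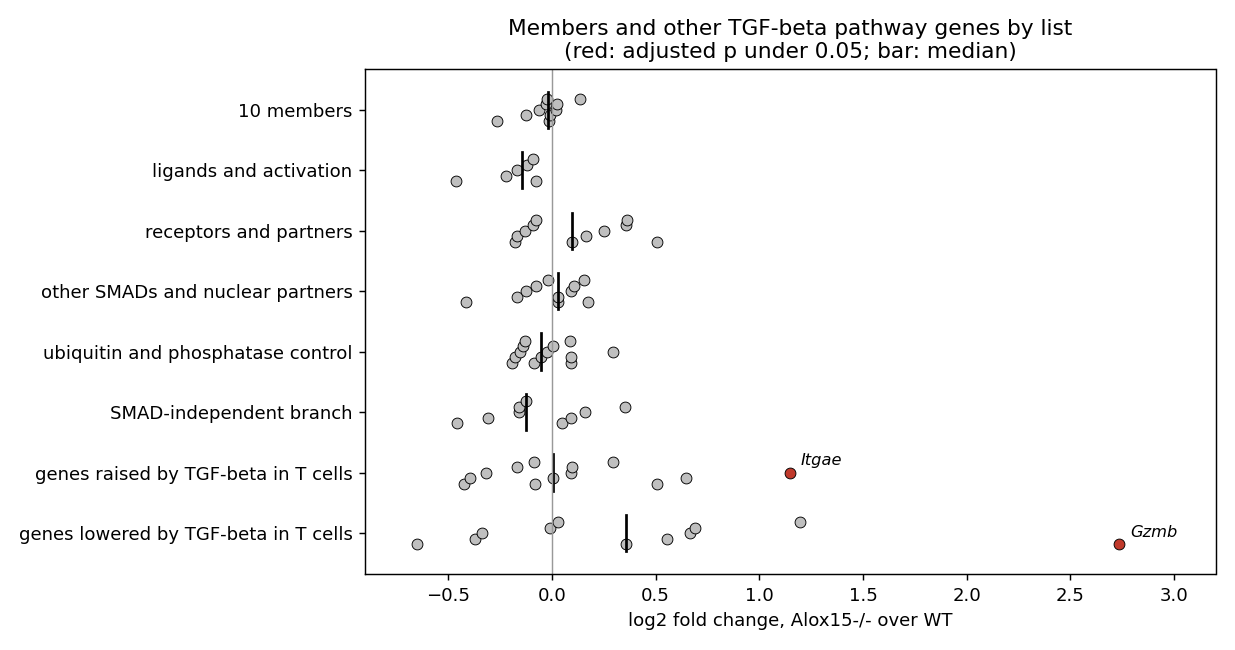
Log2 fold change in the libraries labelled Alox15-/- over WT for every tested gene of the 10 members and of the 7 pathway lists, one point per gene and a bar at the list median, red where the adjusted p is under 0.05. The members lie between -0.26 and 0.14, and the 2 red points are Itgae at 1.15 and Gzmb at 2.74.

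On the side of the ligand, 6 of 13 genes were tested and all 6 had log2 fold changes below 0, with a median of -0.14. Tgfb1, the ligand that T cells themselves make, was at 337, 328, 416 and 314 CPM in the libraries labelled Alox15-/- and at 354, 389, 367 and 459 CPM in WT, with overlapping groups. The log2 fold change of Tgfb1 was -0.17 (95% interval -0.41 to 0.075, edgeR adjusted p = 0.782), and it was -0.080 without WT replicate 4 and -0.26 without replicate 3 labelled Alox15-/-. Lrrc32, which encodes GARP, the anchor of latent TGF-β on activated Tregs, was at 31.6, 25.0, 27.8 and 32.2 CPM against 37.3, 37.2, 55.6 and 29.8 CPM in WT. Its log2 fold change of -0.46 was the lowest of the list (edgeR adjusted p = 0.455), and it was -0.25 without WT replicate 3. WT replicate 4 lay within the range of the libraries labelled Alox15-/-. Nrros, another anchor of latent TGF-β, was the nearest to 0 at -0.075. The genes of the other 2 ligands, Tgfb2 and Tgfb3, had at most 5 and 7 reads in a library and were not tested.

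Of the other receptors and their partners 11 of 14 were tested, with 6 above and 5 below 0. They ranged from -0.18 for Strap, which stabilizes the complex of SMAD7 with the receptor, to 0.51 for Zfyve9, which encodes SARA, an anchor that presents SMAD2 to the receptor (edgeR adjusted p = 0.719 and 0.714), and Zfyve9 was at 0.22 without replicate 3 labelled Alox15-/-. Of 15 other SMADs and nuclear partners, 11 were tested, from -0.41 for Tgif2, a relative of Tgif1, to 0.18 for Runx1, a partner in Foxp3 transcription (adjusted p = 0.525 and 0.782 in edgeR's test). Runx1 was at 0.079 without replicate 1 labelled Alox15-/- and at 0.26 without replicate 3. Smad6, the other inhibitory SMAD, had 4 to 20 reads per library and fell below the filter, so that it was not tested. All 13 genes for ubiquitin ligases, their opponents and phosphatases were tested, from -0.19 for Usp11, a deubiquitinase, to 0.30 for Ldlrad4, which sequesters SMADs at the membrane (edgeR adjusted p = 0.926 and 0.574). With 1 library left out, Usp11 lay between -0.41 (without WT replicate 4) and -0.028 (without WT replicate 3). All 9 genes of the SMAD-independent branch through TAK1 and p38 were tested, from -0.46 for Tab3 to 0.35 for Tab1, which both encode partners of TAK1 (edgeR adjusted p = 0.569 and 0.667).

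**Figure D5:**
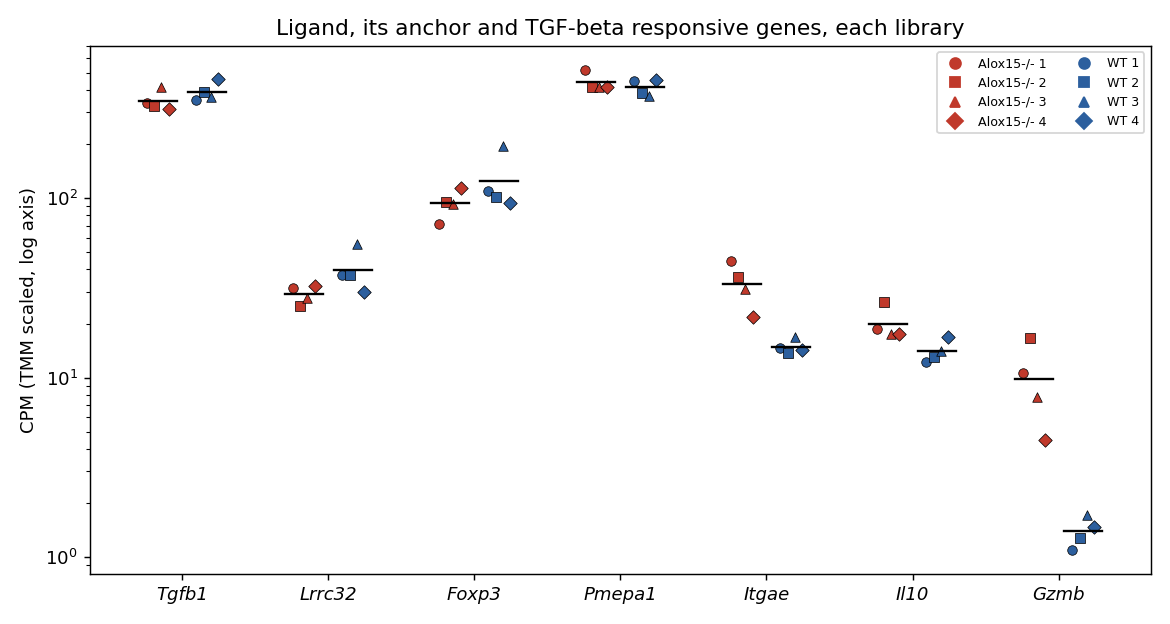
CPM (log axis) in each library of the ligand gene Tgfb1, the anchor gene Lrrc32 and 5 genes that respond to TGF-β in T cells, with libraries labelled Alox15-/- in red, WT in blue and a bar at the group mean. Itgae, Il10 and Gzmb are higher in every library labelled Alox15-/- than in any WT library, whereas Tgfb1, Lrrc32, Foxp3 and Pmepa1 overlap.

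The genes that TGF-β raises in T cells did not move together. Of 15 listed, 13 were tested, 7 above and 6 below 0, with a median of 0.00475. An unadjusted edgeR p under 0.05 was found for 4 of the 13, all higher, and for 7.84% of all genes tested. Itgae (ENSMUSG00000005947.11), which encodes the integrin chain CD103, was at 44.7, 36.1, 31.2 and 21.7 CPM in the libraries labelled Alox15-/- and at 14.6, 13.8, 16.7 and 14.3 CPM in WT. All 4 libraries labelled Alox15-/- were above every WT library, with a log2 fold change of 1.15 (95% interval 0.74 to 1.56, edgeR adjusted p = 0.0042). Itgae lies on chromosome 11 (73090583 to 73147446, plus strand) at 2.7 Mb from Alox15, where it overlaps Haspin on the other strand, and the γδ T cell receptor genes, markers of cells some of which carry CD103, were higher in the same libraries. The part of position and of these cells was not tested. With replicates 2 and 3 labelled Alox15-/-, which had the highest erythroid and myeloid sums, both left out, the log2 fold change of Itgae was 1.13 (edgeR adjusted p = 0.0826), with 2 libraries in that group. Foxp3 was the lowest of the list, at 71.7, 95.5, 93.0 and 114 CPM against 109, 102, 195 and 93.4 CPM in WT. Only WT replicate 3 stood clear of the libraries labelled Alox15-/-, the log2 fold change of Foxp3 was -0.42 (95% interval -0.86 to 0.012, edgeR adjusted p = 0.655), and it was -0.11 without that library. Without a filter on low counts Foxp3 passed the threshold (log2 fold change -0.45, edgeR adjusted p = 0.0189). With 297 to 1937 reads per library, Foxp3 itself was not affected by the filter. The fit without a filter called 388 genes in place of 158. Among them was Il2 (edgeR adjusted p = 1.67e-05), whose difference changed sign without WT replicate 4. Pmepa1, a SMAD target that feeds back on the pathway, was at 518, 414, 417 and 414 CPM against 448, 384, 371 and 454 CPM (log2 fold change 0.090, edgeR adjusted p = 0.889), and its log2 fold change was 0.0057 without replicate 1 labelled Alox15-/-. Il10, named after its values were seen because its groups did not overlap, was at 18.6, 26.3, 17.6 and 17.4 CPM against 12.2, 13.0, 14.0 and 16.8 CPM, and its log2 fold change of 0.50 did not pass (edgeR adjusted p = 0.358).

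Of 12 genes that TGF-β lowers in T cells, 11 were tested, 7 above and 4 below 0, with a median of 0.36. An unadjusted edgeR p under 0.05 was found for 4 of the 11, with 3 higher, Gzmb included, and 1 lower. The share over all genes tested was 7.84%. Gzmb (ENSMUSG00000015437.5; chromosome 14, 56258838 to 56262260), which encodes granzyme B of killer cells, was at 10.6, 16.6, 7.75 and 4.46 CPM in the libraries labelled Alox15-/- and at 1.10, 1.28, 1.72 and 1.47 CPM in WT. It was the only one past the threshold, with a log2 fold change of 2.74 (95% interval 1.91 to 3.56, edgeR adjusted p = 0.00105), although Gata3, a transcription factor of helper T cells, passed in the opposite direction, lower than in WT, without replicate 1 labelled Alox15-/- (log2 fold change of Gata3 with all libraries -0.34, edgeR adjusted p = 0.518). Gzmb was not tested when a library labelled Alox15-/- was left out, since fewer than 4 libraries then reached 2 CPM. The 4 libraries above 2 CPM were those labelled Alox15-/-, so that Gzmb entered the test only through the group in which it was high. Its interval and adjusted p depend on that entry, and nothing is read from them. NK cells and γδ T cells can also make granzyme B, although the negative selection for naïve CD4+ T cells is meant to remove both. Of their 10 listed markers, 4 passed the threshold, the γδ T cell receptor genes Trdc, Tcrg-C1, Tcrg-C2 and Tcrg-C4, all higher in the libraries labelled Alox15-/-. The NK markers Ncr1, Klrb1c, Klre1 and Klra8 fell below the filter, with at most 14 reads in a library, and Klrk1 and Xcl1 did not pass (edgeR adjusted p = 0.324 and 0.0653). The part of these cells in the value of Gzmb was not tested. Il2, the growth factor of activated T cells, was at 73.1, 33.7, 76.8 and 67.0 CPM against 43.1, 39.6, 31.9 and 288 CPM, where WT replicate 4 stood far above the other 7 libraries. The log2 fold change of Il2 was -0.65 (edgeR adjusted p = 0.838) with that library and 0.73 without it.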

How the data were processed

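The authors deposited 1 table of raw counts per gene symbol and library, made by MACE-seq on an Illumina NextSeq500 from cleaned and trimmed reads. The submitters' processing notes name Bowtie, edgeR and GRCm38, and how reads were counted, whether strand was used and how duplicates were handled is not given in the sources used here. The methods name the MACE-Seq Kit and the labels a small RNA kit of the same company, and the labels speak of stored spleens where the methods speak of cultured cells. Columns were assigned by name to 4 libraries labelled Alox15-/- and 4 labelled WT.

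Genes that reached 2 CPM in 4 or more libraries entered the test, with TMM scaling and the quasi-likelihood test of edgeR 4.0.16 in R 4.3.3 and Benjamini–Hochberg adjustment over the 12700 genes tested, at a threshold of 0.05. CPM used library sizes summed over the tested genes. The standard error was the log2 fold change divided by the square root of F, and the 95% interval used the degrees of freedom of the fit. The biological coefficient of variation was 14.5%. Libraries of a group differed by more than sampling noise (chi-square per degree of freedom 4.59 to 17.4), and were taken as separate mice because the series' design text counts 4 mice per group. Counting error was taken as Poisson and covers the reads only.

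The named genes were all 10 members, Alox15, Foxp3, Tgfb1, in each pathway list the genes past the threshold and those with the highest and lowest log2 fold change, and the 3 genes nearest to the member with the widest range (log2 of CPM + 0.5). Pmepa1, Il10, Cd4, Cd3g and the ratios were chosen after values were seen. The members and lists were chosen with earlier results of these data known. Sequences came from RefSeq and positions from GENCODE M21, both on GRCm38, and only some of the promoter stretches found are reported here. Transcript ends were compared with blastn 2.17.0. Alternatives were run with DESeq2 1.42.0 and limma 3.58.1. The fits were also run on simulated data, and the outcome is not reported here. Figures were drawn with matplotlib 3.10.9.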

Additional observations from a re-analysis of the deposited data

Results flagged for a closer look

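In 7 of the 96 groups of 4 values examined, 1 value stood apart by Dixon's criterion (a gap to the nearest value that takes up most of the range), which chance gives in about 1 of 20 groups. Foxp3 was at 195 CPM in WT replicate 3, and Il2 at 288 CPM in WT replicate 4. Pmepa1 was at 518 CPM in replicate 1 labelled Alox15-/- and Il10 at 26.3 CPM in replicate 2. The ratio of Tgfbr1 to Tgfbr2 was 1.14 in replicate 2 labelled Alox15-/-. The sum of CD8 markers was low, at 21.5 CPM, in WT replicate 2, and that of myeloid markers, at 13.8 CPM, in WT replicate 3. None of the CPM values of the 10 members stood apart in this way.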

How the results depend on the processing

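None of the 10 members passed the adjusted threshold in any of 18 alternatives, where the lowest adjusted p was 0.321, for Tgfbr1 without WT replicate 4. Tgfbr1 (-0.34 to -0.19) and Smad4 (-0.16 to -0.086) kept their sign in all 18, and each of the other 8 changed sign in at least 1. With upper quartile scaling, Smad2 was 0.0018, Skil 0.013, Smurf2 0.020 and Tgif1 0.0056. With limma-voom, Smad3 was -0.053, Tgif1 0.026 and Il2 0.030, and without a filter Ski was -0.0058. With each library left out in turn, Smad2 ranged from -0.081 to 0.035, Smad3 from -0.29 to 0.24, Smad7 from -0.019 to 0.23, Ski from -0.080 to 0.12, Skil from -0.097 to 0.035, Smurf2 from -0.11 to 0.11, Tgif1 from -0.11 to 0.18, Nrros from -0.19 to 0.073 and Il2 from -0.95 to 0.73. With replicates 2 and 3 labelled Alox15-/- both left out, chosen after seeing the data, Tgfbr2 was 0.048, Smad2 0.0040, Skil 0.0385, Smurf2 0.11, Tgif1 0.19 and Nrros 0.054, while Smad3 was 0.43 and Smad7 0.35. The number of all genes past the threshold was then 60, against 388 without a filter and 86 (without replicate 2 labelled Alox15-/-) to 172 (without WT replicate 4) with 1 library left out. The higher and lower genes, 133 and 25 with all libraries, numbered 298 and 90 without a filter, 74 and 12 without replicate 2 labelled Alox15-/-, and 83 and 12 without replicate 1. The number of other pathway genes past it was 0 without those libraries and 7 without a filter (Foxp3, Gzmb, Ifng, Il2, Itgae, Nt5e and Tgfbi), and 1 to 2 with 1 library left out. The causes of these shifts were not tested.

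The deviations of same-numbered libraries of the groups correlated weakly and in both directions (r of 0.069, 0.165, -0.178 and -0.018 across genes for numbers 1 to 4). Pairs with unlike numbers lay between -0.213 and 0.149. Such values cannot tell whether same-numbered samples were handled together, and the study's methods name no pairing. With the replicate number as a block, Smad3 was -0.063, 0 members passed and the number of genes past the threshold was 146 in place of 158. Smad4 varied within the groups no more than counting error gives, and Smad3, at 19 to 98 reads per library, varied more than that.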
